A study of Mus musculus with 4 samples.

Results

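The genes described here code for receptors first known from natural killer (NK) cells and for the adaptors through which they signal. They were chosen by symbol as 10 of the 27179 genes in the table: the receptor genes Klrk1, Ncr1, Klrb1b, Klrb1c, Klrb1f, Klrd1, Klrc1 and Klrc2 and the adaptor genes Hcst and Tyrobp. The RNA came from LTi cells (lymphoid tissue inducer cells, which belong to the innate lymphocytes) of C57BL/6 mice, taken from the lamina propria of the small intestine. There were 2 Gata3-KO libraries, from Gata3fl/fl mice with VavCre, and 2 Ctrl libraries, from Gata3+/+ mice. Vav-driven Cre is active in blood cells of all lineages, so the floxed gene can be lost in cells other than LTi cells too. The labels give neither the age of the mice nor whether a library came from 1 animal or a pool, nor whether Ctrl mice carried Cre. The sort kept live cells with CD127 and CCR6 on their surface and discarded those with lineage markers, KLRG1, NK1.1 or NKp46. NK1.1 is the product of Klrb1c and NKp46 that of Ncr1, so a pair of the genes followed here code for proteins that the gate selected against.

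NK receptors read the state of neighbouring cells and pass activating or inhibitory signals to the lymphocyte. Most of them are type II membrane proteins with a C-type-lectin-like domain, coded in a cluster called the NK gene complex, while NKp46 is an immunoglobulin-family protein coded elsewhere. Activating receptors have no signalling motif of their own and depend on small adaptors such as DAP10, DAP12, the Fc receptor gamma chain or CD3 zeta. In the gut, NKp46 is known as the marker of a subset of group 3 innate lymphoid cells (ILC3) that stands apart from LTi cells.

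The Gata3-KO libraries held 24315878 and 23973995 reads and the Ctrl libraries 14294708 and 12670034 reads. Gata3 itself was at 34.5 and 23.3 RPKM (reads scaled to gene length and library size) in Gata3-KO, against 84.3 and 50.7 RPKM in Ctrl, and did not pass the test (adjusted p = 0.0904 in limma). The LTi marker genes Il7r, Ccr6, Kit and Cxcr5 were present in all 4 libraries, each at 45.7 RPKM or more. Il7r, which codes for CD127, and Ccr6 code for proteins that the gate selected for, so their presence is no separate check. Il7r and Kit lay lower in both Gata3-KO libraries than in both Ctrl libraries, Ccr6 lay higher and Cxcr5 overlapped. None of them passed the test. Of all tested genes, 7.57% lay lower in both Gata3-KO libraries than in both Ctrl libraries and 54.0% lay higher. Differences were tested with limma on log2(RPKM + 1), with p-values adjusted over all 14258 genes that passed a filter on low reads, and a gene was called at an adjusted p under 0.05. Of those genes 8.31% were called higher in Gata3-KO and 0.687% lower. The median tested gene lay 0.43 log2 units higher in Gata3-KO on the deposited scale and 0.05 higher after median-ratio scaling, which sets the median gene near equality. Markers of other cells rose in Gata3-KO on the deposited scale, in 13 of 16 tested B and plasma cell genes, 11 of 15 epithelial, 6 of 18 myeloid and 5 of 16 T cell genes, and none of these fell. After median-ratio scaling the same counts were 1, 5, 1 and 0. Of 20 LTi and ILC3 genes, the cytokine gene Il17a rose and Il22 and Cd4 fell on both scales. The median log2 difference of these 20 genes was −0.28, beside 0.43 for all tested genes. After median-ratio scaling it was −0.86, beside 0.05.

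Klrk1, Ncr1 and Klrc1 fell in Gata3-KO, and the other 6 tested members, Klrb1b, Klrb1c, Klrb1f, Klrd1, Hcst and Tyrobp, did not pass the test in either direction. Klrc2 had too few reads to be tested. Both Gata3-KO libraries lay below both Ctrl libraries for 4 of the 9 tested members and above them for 3, against 7.57% and 54.0% of all tested genes. The members were chosen with these results known, so the shares describe them and carry no weight as a test. After median-ratio scaling, where 1.05% of genes were called, 0.435% lower and 0.610% higher, only Klrk1 of the 9 still passed.

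**Figure D1:**
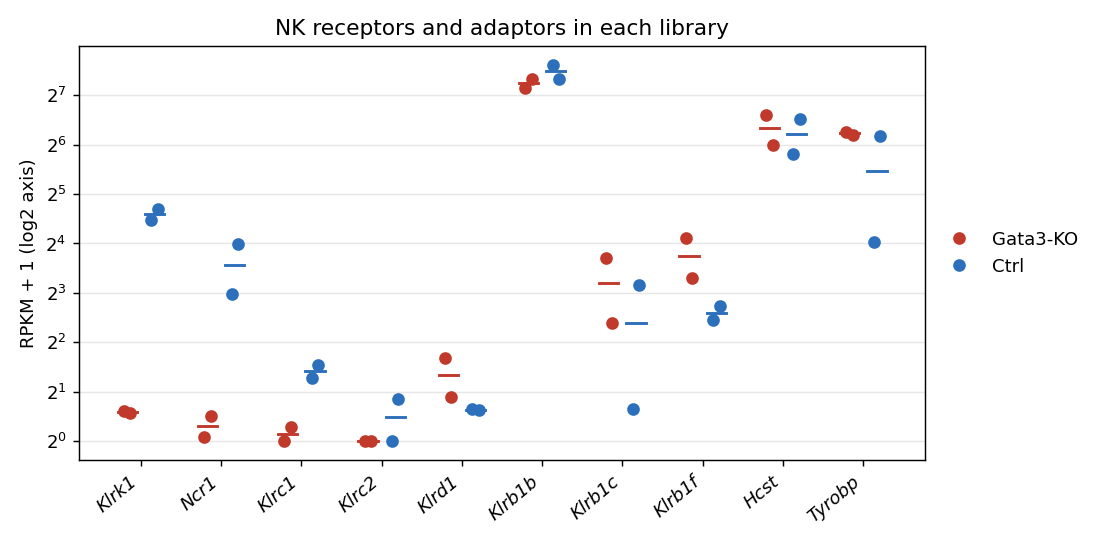
RPKM + 1 on a log2 axis for the 10 receptor and adaptor genes; points are libraries, short lines the mean of 2 libraries, Gata3-KO red and Ctrl blue. The Klrk1 points sit at 0.525 and 0.481 RPKM in Gata3-KO and at 21.4 and 25.1 RPKM in Ctrl, while Klrb1b and Hcst were at 55.2 RPKM or more in every library.

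Klrk1 codes for NKG2D, an activating receptor for stress-induced relatives of MHC class I (Entrez 27007, chromosome 6: 129610323 to 129623903, GRCm38, minus strand). It was measured at 0.525 and 0.481 RPKM in Gata3-KO libraries, from 42 and 38 reads, against 21.4 and 25.1 RPKM in Ctrl libraries, from 1007 and 1046 reads. The libraries of each genotype lay close together and the genotypes did not overlap. Pooled over libraries, Klrk1 took 1.66 CPM (reads scaled to library size) in Gata3-KO and 76.1 CPM in Ctrl, a 46.0-fold lower share in Gata3-KO with a 95% exact interval of 36.8 to 58.2 that covers counting error only. The log2 difference was −4.01 ± 0.31 (SE, adjusted p = 0.00712 in limma), and −4.38 ± 0.29 after median-ratio scaling (adjusted p = 0.0222). Its size depends on the pseudocount and was −5.27 with 0.1 in place of 1. Ranked by RPKM among the tested genes, Klrk1 stood 89.0% and 91.4% of the way down the list in the Gata3-KO libraries, against 16.2% and 13.1% in the Ctrl libraries. Without any 1 library its log2 difference stayed between −4.12 and −3.90, but no longer passed, with adjusted p from 0.0755 to 0.207 in limma. No gene at all was called on the deposited scale with 3 libraries, although 2414 to 3817 had an unadjusted p under 0.05.

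Ncr1 codes for NKp46, an activating receptor that couples to the Fc receptor gamma chain and CD3 zeta (Entrez 17086, chromosome 7: 4337715 to 4345184, plus strand). It was at 0.0562 and 0.428 RPKM in Gata3-KO, from 2 and 15 reads, against 6.84 and 14.8 RPKM in Ctrl, from 143 and 274 reads. Each Ctrl library lay above each Gata3-KO library, and Ctrl replicate 2 was the higher of the Ctrl pair. The 2 reads of Gata3-KO replicate 1 allow 0.00681 to 0.203 RPKM (95% exact Poisson interval), and the pooled share was 43.9-fold lower in Gata3-KO (interval 27.1 to 76.1). Its log2 difference was −3.18 ± 0.44 (adjusted p = 0.0197 in limma), and −3.50 ± 0.48 after median-ratio scaling, where it did not pass (adjusted p = 0.0530). With a pseudocount of 0.1 it was −5.15 ± 0.78 and passed (adjusted p = 0.0355 in limma). Ncr1 would not have passed the filter on low reads without the Ctrl libraries, since Gata3-KO replicate 1 lay below its cutoff. Gata3-KO replicate 2 reached that cutoff with its 15 reads. RNA of Ncr1 was thus counted in Ctrl cells that had been gated against its protein, and the part of the gate in the difference was not tested.

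The promoters of Klrk1 and Ncr1, as the members with the largest falls, and of Klrb1b, the most abundant member, which did not pass the test, are shown as the 250 bases before the RefSeq start site, 5′ to 3′ on the gene's own strand (GRCm38.p6). Capitals mark matches on either strand to a RUNX motif (TGTGGT), a T-box motif (AGGTGT) or a GATA motif. The GATA motif was read as AGATAA, as AGATAG, as TGATAA or as TGATAG. The Klrk1 stretch is chr6:129623865-129624114 on the minus strand, that of Ncr1 is chr7:4337465-4337714 on the plus strand and that of Klrb1b is chr6:128826316-128826565 on the minus strand.
Klrk1: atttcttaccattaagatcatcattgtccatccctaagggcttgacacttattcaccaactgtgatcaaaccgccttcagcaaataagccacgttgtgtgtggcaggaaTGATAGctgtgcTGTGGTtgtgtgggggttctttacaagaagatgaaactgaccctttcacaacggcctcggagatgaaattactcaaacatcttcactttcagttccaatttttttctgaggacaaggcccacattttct
Ncr1: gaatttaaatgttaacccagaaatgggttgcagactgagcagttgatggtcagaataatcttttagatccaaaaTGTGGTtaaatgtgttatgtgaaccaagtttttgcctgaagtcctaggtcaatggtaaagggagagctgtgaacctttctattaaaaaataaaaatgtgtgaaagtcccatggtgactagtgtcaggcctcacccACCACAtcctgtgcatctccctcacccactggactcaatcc
Klrb1b: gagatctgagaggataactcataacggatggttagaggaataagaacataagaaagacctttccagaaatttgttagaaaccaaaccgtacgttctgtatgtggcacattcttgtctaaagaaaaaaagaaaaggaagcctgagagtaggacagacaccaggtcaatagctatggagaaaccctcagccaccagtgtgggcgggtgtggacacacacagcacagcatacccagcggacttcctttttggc
Klrk1 held TGATAG beginning 141 bases before the start site and TGTGGT beginning 129 bases before it. Ncr1 held RUNX matches beginning 176 and 41 bases before the start, the nearer one on the opposite strand. The Klrb1b stretch held none of the marked motifs. A ROR motif (AGGTCA) was planned too but was neither marked nor counted over all windows. Its letters stand in the Ncr1 and Klrb1b stretches but not in that of Klrk1. The capitals of different motifs did not overlap.

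In windows of 300 bases, 250 before and 50 after the start, 8 members had an entry in the promoter table used here, all but Klrd1 and Tyrobp. A GATA motif stood in those of Klrk1, Klrc1 and Klrb1f, against 29.8% of all 32851 windows in the table. A RUNX motif stood in those of Klrk1, Ncr1, Klrc1, Klrc2 and Klrb1c, against 16.8% of windows. Of these, Klrk1, Ncr1 and Klrc1 fell, Klrb1c did not pass the test and Klrc2 was not tested. The members were chosen with results known, so a link between motif and fall was not tested. The T-box motif stood in none of the members' windows, against 13.7% of all windows. These matches are letters in a window and do not show binding.

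Klrd1, Klrc1 and Klrc2 code for CD94 and its partners NKG2A and NKG2C. CD94 pairs with NKG2A to form an inhibitory receptor for the MHC class Ib molecule Qa-1, and with NKG2C to form an activating one. Klrc1 (Entrez 16641) was listed at 0 and 0.227 RPKM in Gata3-KO, from 0 and 4 reads, against 1.43 and 1.93 RPKM in Ctrl, from 15 and 18 reads. Those read numbers depend on the length taken for the gene and could each be a whole multiple of the values given. The genotypes did not overlap, and the log2 difference was −1.27 ± 0.28 (adjusted p = 0.0455 in limma), but −1.49 with an adjusted p of 0.0778 after median-ratio scaling. Klrc1 passed the filter on low reads only through the Ctrl libraries. Pooled, its share was 14.8-fold lower in Gata3-KO (interval 5.26 to 57.4, counting error only).

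Klrd1 (Entrez 16643) was higher in both Gata3-KO libraries than in both Ctrl libraries but did not pass the test. It was at 2.23 and 0.867 RPKM in Gata3-KO, from 47 and 18 reads, against 0.565 and 0.547 RPKM in Ctrl, from 7 and 6 reads. It passed the filter only through the Gata3-KO libraries, and its log2 difference was 0.66 ± 0.36 (adjusted p = 0.267 in limma). Pooled over libraries, its share in Ctrl was 0.358 times that in Gata3-KO, with a 95% exact interval of 0.181 to 0.656 that covers counting error and not the spread between libraries. Klrc2 (Entrez 16642) had 0 reads in both Gata3-KO libraries and 0 and 8 reads in the Ctrl libraries, and 3 reads, the one-sided 95% limit that a count of 0 allows, would be 0.158 and 0.160 RPKM in Gata3-KO. Klrc1, Klrc2 and Klrc3 are close copies and can share reads, so their split is uncertain. Klrd1 and Klrc2 were counted in few reads, and Klrc2 was not tested between the genotypes.

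None of the NKR-P1 receptor genes Klrb1b, Klrb1c and Klrb1f passed the test, and all 3 were detected in each library. Klrb1b codes for NKR-P1B, an inhibitory receptor for the lectin-like ligand Clr-b (Entrez 80782, chromosome 6: 128813706 to 128826315). It was the most abundant of the 10 genes in each library, at 141 and 159.6 RPKM in Gata3-KO, against 195 and 160.3 RPKM in Ctrl. Both Gata3-KO values lay below both Ctrl values, by a margin in the closest pair that was smaller than the spread within either genotype. Klrb1b stood within the top 3.28% of tested genes in every library. Its log2 difference was −0.24 ± 0.28 (adjusted p = 0.608 in limma) and −0.82 ± 0.20 after median-ratio scaling (adjusted p = 0.106).

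Klrb1c codes for the activating receptor NKR-P1C, whose NK1.1 epitope was part of the gate (Entrez 17059). It was at 12.1 and 4.22 RPKM in Gata3-KO, against 0.585 and 7.92 RPKM in Ctrl. The genotypes overlapped, and Ctrl replicate 1 stood below the other 3 libraries. The log2 difference of 1.13 ± 0.95 did not pass (adjusted p = 0.470 in limma) and became −0.11 without Ctrl replicate 1. Klrb1f codes for NKR-P1F, a receptor for the ligand Clr-g (Entrez 232408). It was at 16.2 and 8.86 RPKM in Gata3-KO, against 4.51 and 5.64 RPKM in Ctrl, so that both Gata3-KO libraries lay above both Ctrl libraries, as 54.0% of tested genes did. The log2 difference was 1.11 ± 0.37 (adjusted p = 0.110 in limma) and 0.59 ± 0.40 after median-ratio scaling. Annotated exons of Klrb1b and Klrb1c share 26.9% and 13.9% of their bases with the predicted gene Gm44511, and the Klrb1 genes resemble each other, so reads may be split among them.

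The adaptor genes were abundant in both genotypes. Hcst codes for DAP10, which links NKG2D to phosphoinositide 3-kinase, and Tyrobp for DAP12, which carries an activation motif that recruits Syk and ZAP-70. They are neighbours on chromosome 7, with Tyrobp at 30413782 to 30417582 on the plus strand and Hcst at 30417712 to 30419854 on the minus strand. Hcst (Entrez 23900) was at 95.6 and 62.9 RPKM in Gata3-KO, against 55.2 and 90.2 RPKM in Ctrl, and the genotypes overlapped. Its log2 difference of 0.13 ± 0.36 did not pass (adjusted p = 0.838 in limma), and it turned to −0.45 after median-ratio scaling. Tyrobp (Entrez 22177) was at 75.7 and 72.5 RPKM in Gata3-KO, against 15.4 and 71.6 RPKM in Ctrl. Only Ctrl replicate 1 was low, and the log2 difference was 1.12 ± 0.71 with all libraries (adjusted p = 0.341 in limma) and 0.05 without that one. Tyrobp is also a gene of myeloid cells, whose summed marker level was 733 and 1899 RPKM in Gata3-KO, against 904 and 1332 RPKM in Ctrl. The part of such cells in its level was not tested.

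**Figure D2:**
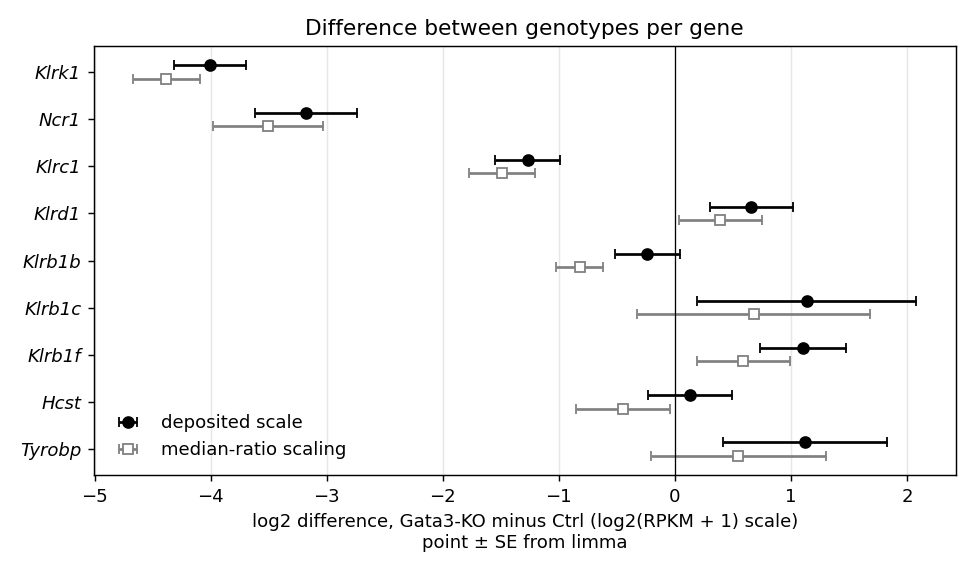
Log2 difference, Gata3-KO minus Ctrl, with its SE from limma for the 9 tested members, on the deposited scale (black) and after median-ratio scaling (grey). Klrk1, Ncr1 and Klrc1 lie at −4.01, −3.18 and −1.27 on the deposited scale; Hcst lies at 0.13 there and at −0.45 after median-ratio scaling.

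The members also differed from each other in their level. In the order of their mean RPKM in Gata3-KO they ran Klrb1b (150.2 ± 13.4), Hcst (79.2 ± 23.1), Tyrobp (74.1 ± 2.24), Klrb1f (12.5 ± 5.16), Klrb1c (8.14 ± 5.55), Klrd1 (1.55 ± 0.965), Klrk1 (0.503 ± 0.0305), Ncr1 (0.242 ± 0.263) and Klrc1 (0.114 ± 0.160) (SD, n = 2). In Ctrl the order was Klrb1b (177.5 ± 24.3), Hcst (72.7 ± 24.7), Tyrobp (43.5 ± 39.7), Klrk1 (23.2 ± 2.60), Ncr1 (10.8 ± 5.62), Klrb1f (5.07 ± 0.801), Klrb1c (4.25 ± 5.18), Klrc1 (1.68 ± 0.357) and Klrd1 (0.556 ± 0.0132). Klrk1 thus stood below Klrb1f, Klrb1c and Klrd1 in Gata3-KO and above all of them in Ctrl. Hcst and Tyrobp overlapped within each genotype, as did Klrb1f and Klrb1c.

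The adaptors and kinases that NKp46 and NKG2D use were examined as a list of 27 genes, 25 of them tested, of which 5 rose and none fell in limma (Cd247, Syk, Lck, Plcg1 and Lat). Of all tested genes 8.31% were called higher and 0.687% lower. The list's median log2 difference was 0.50, beside 0.43 for all tested genes. Fcer1g, the Fc receptor gamma chain, was at 206 and 227 RPKM in Gata3-KO, against 623 and 390.2 RPKM in Ctrl. The genotypes did not overlap, and the log2 difference of −1.19 ± 0.34 did not pass (adjusted p = 0.0780 in limma, 0.0575 after median-ratio scaling). Cd247, which codes for CD3 zeta and is used by T cells as well, was at 9.51 and 10.3 RPKM in Gata3-KO, against 0.760 and 0.823 RPKM in Ctrl. It rose by 2.60 ± 0.31 log2 units (adjusted p = 0.0168 in limma) and was the 1 gene of the list that still passed after median-ratio scaling (2.20, adjusted p = 0.0493).

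Syk, a kinase that DAP12 recruits and that B cells use too, was at 10.6 and 19.6 RPKM in Gata3-KO, against 0.783 and 2.05 RPKM in Ctrl. Its rise of 2.73 ± 0.44 log2 units passed on the deposited scale (adjusted p = 0.0254 in limma) and not after median-ratio scaling (adjusted p = 0.0816). Zap70, the related kinase of NK and T cells, was at 175 and 153 RPKM in Gata3-KO, against 238 and 204 RPKM in Ctrl, and did not pass (log2 −0.42, adjusted p = 0.350 in limma). In the same libraries the summed level of 17 T cell markers was 1029 and 436 RPKM in Gata3-KO, against 305 and 242 RPKM in Ctrl. That of 16 B and plasma cell markers was 4175 and 2515 RPKM in Gata3-KO, against 449 and 626 RPKM in Ctrl. None of the markers in these lists was at 0 in all libraries. The sort had discarded cells with lineage markers. The part of T and B cells in the levels of Cd247, Syk, Lck, Plcg1 and Lat was not tested.

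**Figure D3:**
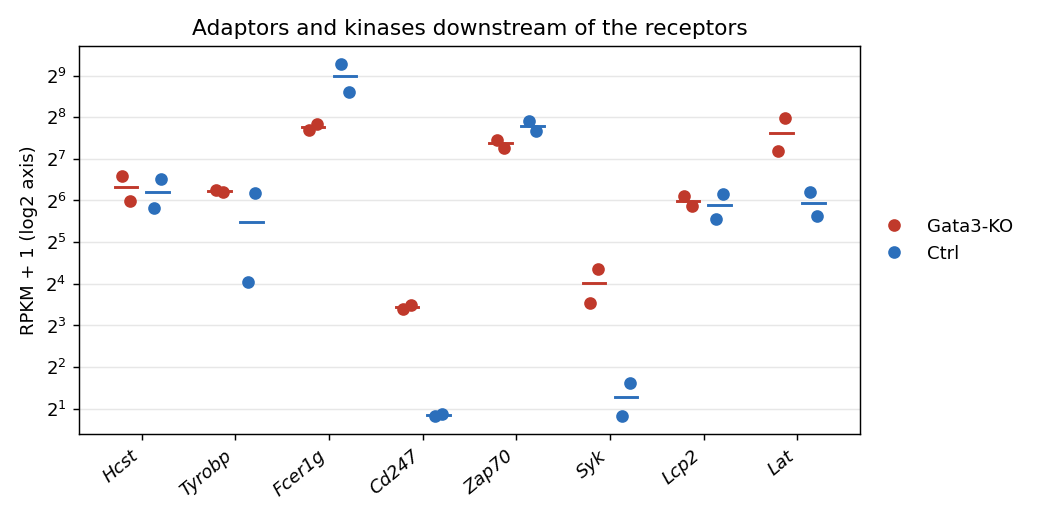
RPKM + 1 on a log2 axis for 8 adaptor and kinase genes; points are libraries, short lines the mean of 2 libraries, Gata3-KO red and Ctrl blue. Hcst overlaps between genotypes, Fcer1g is lower in both Gata3-KO libraries (206 and 227 RPKM) than in both Ctrl libraries, and Cd247 and Syk are higher.

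Beyond the members, 20 further lectin-like receptor genes were in the table, of which 6 were tested and 7 had no read in any library, among them Klra3, Klra4, Klra6, Klra7, Klra8 and Klra10 of the Ly49 family. Klra17, a Ly49-related gene, was the 1 called, at 2.66 and 1.77 RPKM in Gata3-KO, from 76 and 50 reads, and 0 reads in both Ctrl libraries. It passed the filter through Gata3-KO alone (log2 difference 1.67 ± 0.29, a size that depends on the pseudocount of 1, adjusted p = 0.0282 in limma, 0.0726 after median-ratio scaling). In the same libraries 6 of 18 tested myeloid markers rose and 0 fell, while their summed level overlapped between genotypes. The part of myeloid cells in the level of Klra17 was not tested. The median log2 difference of the 6 tested genes was −0.08, beside 0.43 for all tested genes, of which 8.31% were called higher and 0.687% lower. Klrb1a, the activating NKR-P1A, was at 2.07 and 2.46 RPKM in Gata3-KO, against 2.09 and 2.42 RPKM in Ctrl. Klrg1, whose protein the gate excluded, was at 0.452 and 0 RPKM in Gata3-KO, against 1.43 and 0.231 RPKM in Ctrl, and did not pass. Klre1, which codes for a partner of the Klri receptors, had 7 and 3 reads in Gata3-KO, against 3 and 2 reads in Ctrl, and was not tested. Klri2, named after its values were seen, had 6 and 0 reads in Gata3-KO, against 58 and 124 reads in Ctrl, with a log2 difference of −1.37 ± 0.33 that did not pass (adjusted p = 0.0546 in limma). It reached the filter on low reads only through the Ctrl libraries.

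Of the 10 genes, 7 lie in the NK gene complex on chromosome 6, spread over 904 kb between Klrb1c and Klrc1. Within that span and 500 kb to either side, 56 genes were in the table and 31 were tested. Klra17 and Rhno1, a DNA damage checkpoint gene at the edge of the region, rose, and Klrk1 and Klrc1 fell. Over all tested genes 8.31% were called higher and 0.687% lower. The median log2 difference of the region was 0.64, beside 0.43 for all tested genes, and 0.45 beside 0.05 after median-ratio scaling, where only Klrk1 of the region passed. In chromosomal order, Klrd1, which did not pass, is followed by Klrk1, Klrc3, Klrc2, Klrc1, Klri1 and Klri2. Of these, Klrk1, Klrc1 and Klri2 were lower in both Gata3-KO libraries than in both Ctrl libraries. Klrc1 and Klri2 passed the filter only through Ctrl. Klrc3 had 2 reads in all, in Ctrl replicate 2, and Klri1 had 6 and 1 reads in Gata3-KO, against 0 and 17 reads in Ctrl. Among the 31 tested genes of the region, both Gata3-KO libraries lay below both Ctrl libraries for 4 and above them for 17. Over all tested genes the shares were 7.57% and 54.0%. The stretch was picked after its values were seen. Ncr1 lies on another chromosome.

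**Figure D4:**
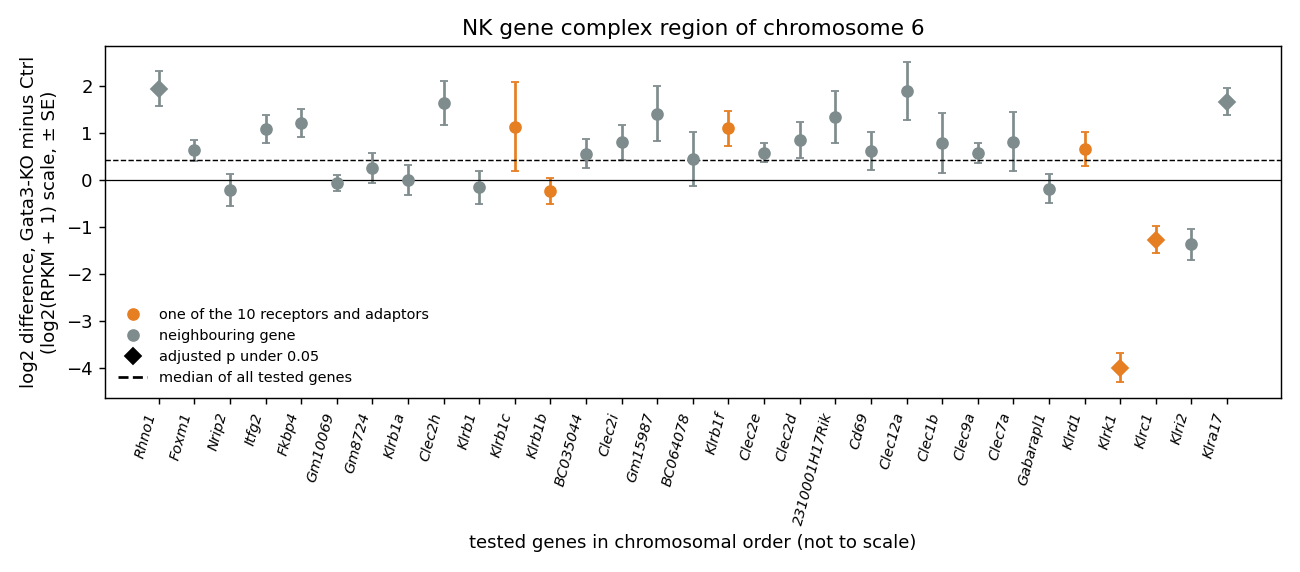
Log2 difference, Gata3-KO minus Ctrl, with SE for the 31 tested genes of the NK gene complex region, in chromosomal order but not to scale; orange marks members, diamonds an adjusted p under 0.05 and the dashed line the median of all tested genes (0.43). Klrk1 (−4.01) lies lowest, with Klrc1 (−1.27) and Klri2 (−1.37) beside it. Klri2 did not pass the test, nor did the members Klrb1b, Klrb1c, Klrb1f and Klrd1 in the same region.

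None of the 7 tested genes for ligands of these receptors was called, where 8.31% of all tested genes were called higher and 0.687% lower. The median log2 difference of the 7 ligand genes was 0.59, beside 0.43 for all tested genes. H2-T23, which codes for Qa-1, was at 254 and 277 RPKM in Gata3-KO, against 212 and 179 RPKM in Ctrl (log2 0.44 ± 0.28, adjusted p = 0.333 in limma), and lay at −0.14 after median-ratio scaling. Clec2d, which codes for Clr-b, was at 4.27 and 3.26 RPKM in Gata3-KO, against 2.36 and 1.04 RPKM in Ctrl. Clec2i, which codes for Clr-g, was at 6.90 and 9.82 RPKM in Gata3-KO, against 5.66 and 3.23 RPKM in Ctrl. Raet1e, a ligand gene of NKG2D, had 1 and 0 reads in Gata3-KO, against 0 and 5 reads in Ctrl, and was not tested. H60b, another, was at 4.23 and 1.49 RPKM in Gata3-KO, against 5.44 and 3.56 RPKM in Ctrl. Ulbp1, a further one, was at 1.56 and 0.504 RPKM in Gata3-KO, against 0.769 and 1.26 RPKM in Ctrl. For H60b and Ulbp1 the genotypes overlapped, and neither gene passed the test.

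Among 21 tested immunoglobulin-family receptors of NK cells, Cd2, Lair1 and Tigit rose and Lilrb4a fell, where 8.31% of all tested genes rose and 0.687% fell. The median log2 difference was 0.68, beside 0.43 for all tested genes. Lilrb4a codes for an inhibitory receptor and was at 16.5 and 17.2 RPKM in Gata3-KO, against 46.3 and 56.8 RPKM in Ctrl, a fall of 1.55 ± 0.27 log2 units (adjusted p = 0.0283 in limma). Cd2, an adhesion receptor, was at 22.4 and 23.01 RPKM in Gata3-KO, against 2.32 and 1.93 RPKM in Ctrl (log2 2.93 ± 0.29, adjusted p = 0.0115). After median-ratio scaling Lilrb4a (adjusted p = 0.0468 in limma) and Cd2 (adjusted p = 0.0411 in limma) passed, and Lair1 and Tigit did not. The summed T cell markers and the summed B and plasma cell markers were also higher in both Gata3-KO libraries. The part of T, B and other cells in the levels of Cd2, Lair1 and Tigit was not tested. Fcgr3, the low-affinity Fc receptor CD16, was at 21.7 and 32.3 RPKM in Gata3-KO, against 34.4 and 31.0 RPKM in Ctrl, and did not pass. Cd244a, the receptor 2B4, was at 0.416 and 2.06 RPKM in Gata3-KO, against 0.875 and 8.02 RPKM in Ctrl, and the genotypes overlapped.

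Other genes of NK cells and group 1 innate lymphoid cells (ILC1) were examined because Klrk1, Ncr1, Klrc1 and Klrd1 are expressed by those cells. None of 20 tested genes of that list was called, where 8.31% of all tested genes were called higher and 0.687% lower. The list's median log2 difference was 0.38, beside 0.43 for all tested genes. The summed level of its 22 genes was 1149 and 931 RPKM in Gata3-KO, against 1396 and 1474 RPKM in Ctrl. Eomes, a defining transcription factor of NK cells, had 1 and 18 reads in Gata3-KO, against 0 and 3 reads in Ctrl, and S1pr5 had none in any library. Tbx21, which codes for T-bet, was at 7.96 and 0.588 RPKM in Gata3-KO, against 6.22 and 29.3 RPKM in Ctrl, and Xcl1 at 1.88 and 0.166 RPKM in Gata3-KO, against 0.976 and 52.2 RPKM in Ctrl. Of the genes named here, Nkg7, Gzma and Ifng were highest in Gata3-KO replicate 1. Gzmb, Gzmc, Prf1 and Cxcr3 of the same list were highest in Ctrl replicate 2, as Tbx21 and Xcl1 were. Nkg7 was at 279 and 19.9 RPKM in Gata3-KO, against 10.2 and 47.3 RPKM in Ctrl, and Gzma, a granzyme gene, at 13.7 and 4.75 RPKM in Gata3-KO, against 2.79 and 3.60 RPKM in Ctrl. Ifng, which codes for interferon gamma, was at 17.4 and 6.98 RPKM in Gata3-KO, against 0.811 and 5.17 RPKM in Ctrl. In RNA from many cells, fewer cells that express a gene and less RNA per cell cannot be told apart.

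**Figure D5:**
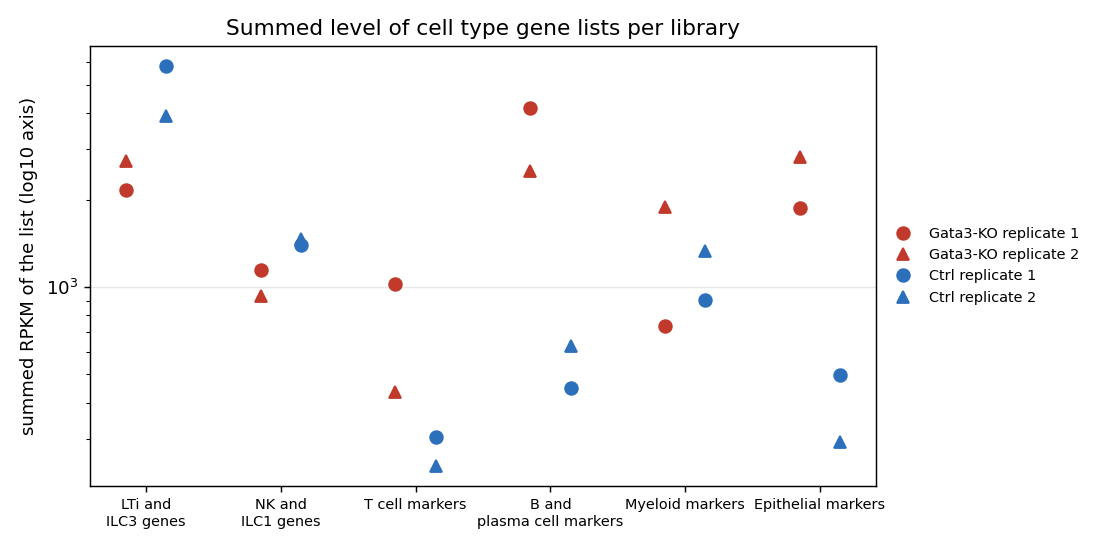
Summed RPKM on a log10 axis for 6 cell type gene lists in each library, Gata3-KO red and Ctrl blue, circles replicate 1 and triangles replicate 2. B and plasma cell genes (4175 and 2515 RPKM in Gata3-KO, 449 and 626 RPKM in Ctrl) and epithelial genes (1883 and 2822 RPKM in Gata3-KO, 497 and 292 RPKM in Ctrl) are higher in Gata3-KO, and the LTi and ILC3 list sums to 2166 and 2740 RPKM in Gata3-KO and 5823 and 3925 RPKM in Ctrl.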

How the data were processed

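Per the labels' protocols, RNA was extracted with a miRNeasy Micro kit and made into Smart-seq2 libraries, whose reads carry no molecular identifiers. The submitters' processing notes name Subread, featureCounts and mm10; for versions, annotation and strand use the sources used here give nothing. Each deposited value is log2 of RPKM + 1, raised by 0.0001, as worked out from the values, with each library scaled by the authors to its own total.

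Whole reads were recovered from the steps between values (within 1e-05 reads), with gene lengths chosen near annotated exon lengths; recovered sums came to 100.05% to 100.16% of the library totals. The count of a single gene can be off by a whole factor. The Gata3-KO libraries were 1.79 times as deep as the Ctrl libraries. Genes needed 0.5226 CPM in 2 libraries and 15 reads in total. Limma 3.58.1 (R 4.3.3, trend and robust, two-sided, Benjamini-Hochberg) was fitted to all 4 libraries. Symbols, positions and promoters came from RefSeq (GRCm38.p6), where 25275 of 27179 Entrez identifiers were found, and exons from GENCODE. Other steps ran in Python 3.11.15 with scipy 1.17.1, numpy 2.4.6, pandas 2.3.3 and, for plots, matplotlib 3.10.9.

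The members and lists were chosen with earlier results of these data known. Named are all members, Gata3, gate genes, up to 4 called genes by adjusted p per list of receptors, adaptors, ligands and LTi genes and in the region, and direct partners and ligands of the members. The other LTi check genes, Lat, Klri1, Klri2, Klrc3, Eomes, S1pr5, Tbx21, Xcl1, Nkg7, Gzma, Ifng and the genes without reads were named after their values were seen. So were Gzmb, Gzmc, Prf1, Cxcr3, H60b and Ulbp1. Called markers of other cells are given as counts. No label says that the replicates are separate animals, so the p-values cover only the spread among these libraries, which may be technical. Intervals are at a 95% level.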

Additional observations from a re-analysis of the deposited data

How the results depend on the processing

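Klrk1 kept its direction under all settings and passed under all but that without a filter and 7 of the 8 without a library; Klrb1b and Klrb1f kept their direction and did not pass under any. Calls over all genes (1185 higher and 98 lower, 1283 in all) became 149 (87, 62) with median-ratio and 177 (112, 65) with TMM scaling, 0 (0, 0) without a filter (4336 at an unadjusted p under 0.05), 851 (778, 73) with a pseudocount of 0.1, 288 (240, 48) with limma-voom, 96 (30, 66) when that was joined to median-ratio scaling, and 1719 (1585, 134) with the filter of 5 CPM. No pairing by replicate number was seen over all tested genes (correlation of deviations −0.02), but 1 correlation cannot exclude that the libraries were paired. The replicate block gave 1059 calls (982, 77), or 25 (18, 7) with median-ratio scaling. With both the block and that scaling, Ncr1 lay at −3.50 and Klrc1 at −1.49, neither passing. Without each library the calls ranged from 0 to 0, and with median-ratio scaling from 0 to 85 (0 to 64 higher, 0 to 21 lower). Called genes in the list of other lectin-like receptors (1), the immunoglobulin-family (4), the adaptors (5) and the NK gene complex (4) became 0, 2, 1 and 1 with median-ratio and with TMM scaling, 0 in each without a filter, 0, 2, 3 and 1 with limma-voom, 0, 1, 0 and 1 when that was joined to median-ratio scaling, and 0, 0, 0 and 1 with median-ratio scaling and the block. A pseudocount of 0.1 gave 3 called adaptors and the filter of 5 CPM 1 called ligand and 0 other lectin-like receptors. Without each library the same 4 counts were 0 to 0, with median-ratio scaling too except for 0 to 1 in the complex.

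Without a filter Klrk1 lay at −4.01, Ncr1 at −3.18 and Klrc1 at −1.27, none passing. Ncr1 lay at −3.50 with median-ratio scaling, −3.49 with TMM, −5.82 with limma-voom and −6.34 with both that and median-ratio scaling, and Klrc1 at −1.49, −1.48, −4.33 and −4.90, and at −3.28 with a pseudocount of 0.1, all past no threshold. Without each library the ranges, on the deposited scale and with median-ratio scaling, were −4.12 to −3.90 and −4.57 to −4.19 for Klrk1, −3.68 to −2.67 and −4.09 to −2.92 for Ncr1, −1.42 to −1.12 and −1.69 to −1.29 for Klrc1, −0.11 to 2.38 and −0.69 to 2.05 for Klrb1c, 0.26 to 1.05 and −0.0063 to 0.79 for Klrd1, −0.22 to 0.48 and −0.88 to −0.018 for Hcst, 0.05 to 2.20 and −0.61 to 1.71 for Tyrobp. They were 0.18 to 1.37 and −0.33 to 0.71 for Ccr6, −2.12 to 0.15 and −2.60 to −0.10 for Cd244a, 0.32 to 0.56 and −0.18 to −0.10 for H2-T23 and −0.083 to 0.090 and −0.54 to −0.27 for Klrb1a. Over both scales they were −0.060 to 1.81 for Gzma and −0.78 to 3.59 for Nkg7. Klrk1 passed in 1 of these fits (median-ratio scaling without Ctrl replicate 2, adjusted p = 0.0493 in limma). With median-ratio, with TMM, and with voom plus median-ratio scaling, Hcst lay at −0.45, −0.42 and −0.43, H2-T23 at −0.14, −0.11 and −0.14, and Klrb1a at −0.41, −0.39 and −0.57; with the block and median-ratio scaling they lay at −0.45, −0.14 and −0.41. The cause of these changes was not tested. With 0 to 18 reads per library for Klrc1, 0 to 8 for Klrc2 and 6 to 47 for Klrd1, depth limits what can be said of them.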
